A study of Caenorhabditis elegans with 3 samples.

Results

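Cytochrome P450 (cyp) and UDP-glucuronosyltransferase (ugt) genes of Caenorhabditis elegans were followed across 3 RNA-seq libraries of whole L4 larvae. Members were the genes, present in both deposited gene tables, whose gene name starts with cyp- or ugt- and a digit, which gave 146 of 46135 listed genes, 81 cyp and 65 ugt. Each library came from wild-type N2 worms that were synchronised as L1 larvae and fed RNAi bacteria on plates for 36 hours, against ham-3, swsn-2.2 or, as the control, gfp, which has no match in the worm genome. Both target genes encode related proteins of SWI/SNF, a complex that remodels chromatin. Poly(A) RNA was sequenced as read pairs of 73 bp. The growth temperature is uncertain, because the labels give 25 °C in one place and 35 °C in another. Each group had 1 library, so differences below have no replicate check and carry no p-value of their own.

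Cytochromes P450 are haem monooxygenases that insert an oxygen atom into lipids, steroids and foreign compounds, drawing electrons from NADPH-cytochrome P450 reductase, which worms encode as emb-8. UDP-glycosyltransferases then attach a sugar from a UDP-sugar donor to the oxidised or otherwise reactive group, which makes the product more soluble and ready for export. In worms many genes of both superfamilies lie in tandem arrays, and many are active in the intestine, where food-borne toxins and fat are handled. Some P450s instead make signalling lipids or eggshell lipids.

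Levels are given as FPKM, mapped fragments scaled to transcript length and to library size, so levels of different genes are compared per length. Unless a ratio is called a log2 FPKM ratio, ratios and the 1.5-fold line refer to log2 of FPKM + 1, which understates the ratio of low genes. Inferred depth was 19550000, 30300000 and 30500000 fragments in the gfp(RNAi) library, the ham-3(RNAi)-labelled library and the swsn-2.2(RNAi) library, and libraries are listed in this order throughout. The ham-3 gene stood at 19.3, 23.1 and 31.5 FPKM, so it was not lower in the library that carries its name. The swsn-2.2 gene stood at 19.3 and 37.8 FPKM and was listed at 0 in its own library. Some broadly used genes, such as the Mediator subunit gene mdt-15, are also listed at 0 in these tables, so a value of 0 was not read as absence. Of 10 intestinal markers the 8 above 0 in all libraries summed to 3148, 3072 and 3353 FPKM, and none of them was 1.5-fold apart between any pair of libraries, while ges-1 and eps-8 were listed at 0 in some. Of 8 hypodermal markers the 6 above 0 summed to 1160.5, 991 and 852 FPKM, mostly the cuticle collagen gene dpy-13 (1055, 868 and 745 FPKM), and none was 1.5-fold apart. Their median log2 ratios were 0.08 in the ham-3(RNAi)-labelled library and -0.03 in swsn-2.2(RNAi). The 5 pharyngeal markers summed to 106, 118 and 89.1 FPKM, and the pharyngeal muscle myosin gene myo-1 was 1.5-fold lower in swsn-2.2(RNAi) than in the control (log2 ratio -0.64). Between the RNAi libraries myo-1 (0.82) and myo-2 (0.79) were both 1.5-fold apart. Germline markers summed to between 1005 and 1091 FPKM and the neuronal markers above 0 to between 322 and 332 FPKM, with none 1.5-fold apart. The part of these tissues in the differences below was not tested.

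P450 and UGT transcripts ranged from below 0.1 FPKM to 209 FPKM in the control, with a few genes of each superfamily carrying much of the total. In the gfp(RNAi) library 102 members reached 1 FPKM, 56 reached 10 FPKM and 3 reached 100 FPKM. The median member level was 3.60 FPKM for cyp and 8.71 FPKM for ugt genes. Of the 65 ugt genes 52 reached 1 FPKM, against 50 of the 81 cyp genes. Whether a low level reflects few expressing cells or little RNA per cell cannot be told apart in whole worms.

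Among the P450s, cyp-13A6 stood highest, at 186, 216 and 189 FPKM. It alone made 20.5% of the summed cyp level in the gfp(RNAi) library, and the top 5 genes made 50.0%. The next were cyp-33A1 at 78.8, 113 and 64.3 FPKM, cyp-34A9 at 77.5, 87.6 and 67.0 FPKM, and cyp-14A5 at 72.0, 124 and 80.0 FPKM. All 3 had their highest level in the ham-3(RNAi)-labelled library. An antisense non-coding RNA overlaps an exon of cyp-13A6, and the strandedness of the libraries is not stated, so reads of overlapping genes on opposite strands may be mixed. Exons of 39 of the 146 members overlap another annotated gene.

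Among the UGTs, ugt-62 stood highest, at 209, 176 and 203 FPKM, which was 14.4% of the summed ugt level in the gfp(RNAi) library. The second, ugt-47, was nearly flat at 132, 128 and 128 FPKM. The next in the control, ugt-61 and ugt-22, stood at 91.5, 96.1 and 79.0 FPKM and at 90.9, 103 and 98.7 FPKM. UGT-22 has been linked to resistance of worms to the anthelmintic albendazole. The exons of ugt-22 and ugt-47 each overlap a chemoreceptor gene (srz-29 and srd-49) on the opposite strand.

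**Figure D1:**
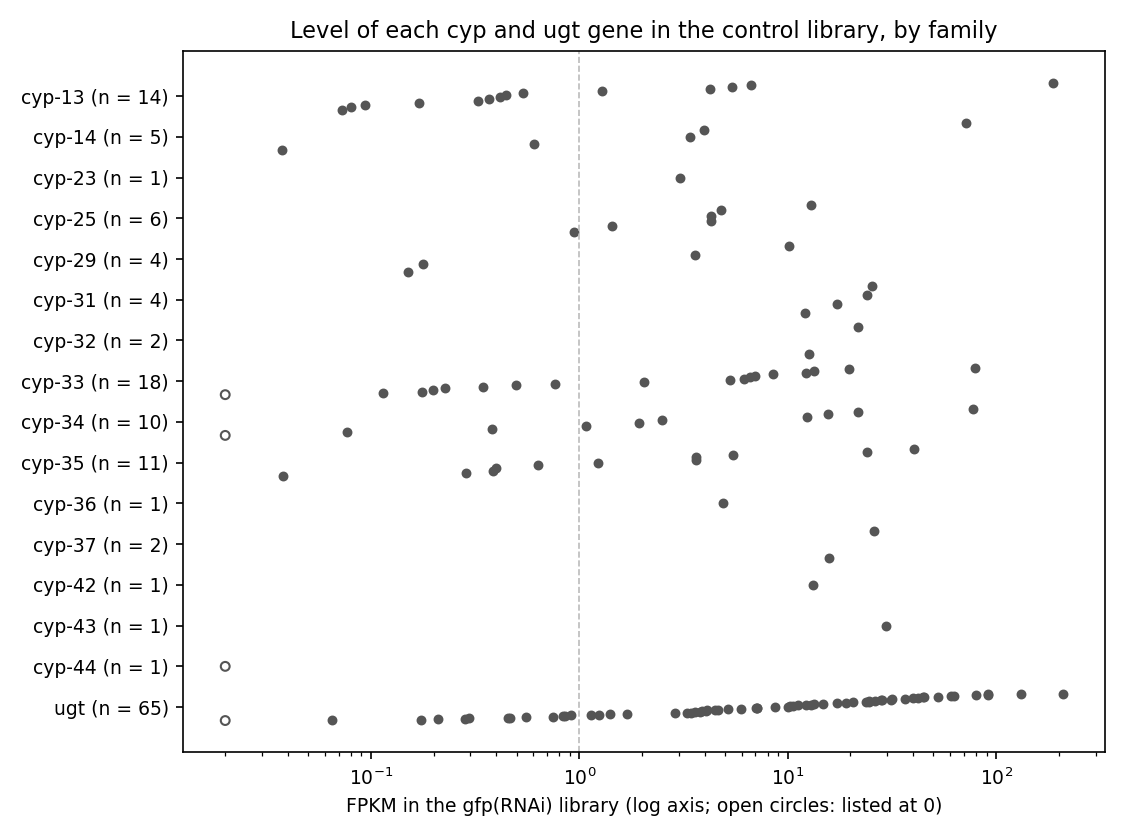
FPKM of every member in the gfp(RNAi) library on a log axis, 1 point per gene, with cyp genes by family and all ugt genes in 1 row (points are offset vertically by rank only, and open circles are genes listed at 0). Several families span from below 1 FPKM to above 10 FPKM, the 4 cyp-31 genes all lie above 12 FPKM, and cyp-13A6 and ugt-62 lie at the right edge.

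Families with known roles were present at moderate levels. The cyp-31 genes, of which cyp-31A2 and cyp-31A3 act together with EMB-8 in making eggshell lipids, ranged from 12.1 to 25.4 FPKM in the control. Their summed level was 78.7, 85.1 and 87.9 FPKM. One of them, cyp-31A1, is annotated as a pseudogene and was listed at 17.2, 17.2 and 18.4 FPKM. Whether reads of the other cyp-31 genes enter this level was not analysed here. The other 5 annotated pseudogenes are cyp-13A9, cyp-25A5, cyp-29A1, cyp-34A3 and cyp-35D2.

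The cyp-35 family, known for induction by foreign compounds and for a part in fat storage, was dominated by cyp-35A2 and cyp-35C1. The cyp-35A2 level was 40.2, 52.8 and 44.4 FPKM, and the cyp-35C1 level was 23.9, 31.4 and 25.6 FPKM. The direct neighbour of cyp-35A2 on chromosome V, cyp-35A1, stood at only 0.285, 0.182 and 0.104 FPKM. The DAF-16 target cyp-35B1 stood at 3.64, 4.55 and 2.91 FPKM. On the scale of FPKM + 1 none of the 6 cyp-35 genes with a mean of at least 1 FPKM was 1.5-fold apart between any pair of libraries. In log2 FPKM ratio some passed that size, such as cyp-35B1 between the RNAi libraries (0.65, counting interval 0.32 to 0.97).

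P450s that make or act on signalling lipids were low to moderate. The eicosanoid-forming enzymes cyp-29A3 and cyp-33E2 stood at 3.60, 5.85 and 4.44 FPKM and at 6.19, 7.76 and 7.47 FPKM. In the ham-3(RNAi)-labelled library cyp-29A3 was just short of the 1.5-fold line on FPKM + 1 (log2 ratio 0.58), and its log2 FPKM ratio was 0.70, with a counting interval of 0.38 to 1.03. The oxygen-response genes cyp-36A1, which acts downstream of the hydroxylase EGL-9, and cyp-13A12 stood at 4.88, 4.27 and 4.54 FPKM and at 0.370, 0.514 and 0.407 FPKM. The P450 DAF-9, which makes the dafachronic acid hormones and is not named as a cyp gene, was at 2.49, 2.97 and 3.03 FPKM.

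For differences between libraries, the log2 ratio of FPKM + 1 was used, over the genes above 0 in all 3 libraries with a mean FPKM of at least 1. Of the 146 members 103 qualified, 49 cyp and 54 ugt. Of the others, 42 had a mean below 1 FPKM (31 cyp and 11 ugt), and cyp-44A1 was left out for a value of 0. A gene was counted as higher or lower from 1.5-fold on this scale. Where a gene has 1 transcript, a 95% counting interval of its log2 FPKM ratio was computed from inferred fragments. These intervals cover counting error only, not differences between cultures or reads shared between similar genes.

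The ham-3(RNAi)-labelled library held 7 members at least 1.5-fold higher than gfp(RNAi), or 6.80% of the 103, where the share over all 14154 genes compared was 1.65%. These were cyp-13A5, cyp-14A5, ugt-8, ugt-13, ugt-33, ugt-41 and ugt-63. It held 4 members at least 1.5-fold lower, cyp-34A2, ugt-2, ugt-18 and ugt-54, or 3.88% against 2.8% of all genes. With genes listed at 0 kept, the share higher rose from 6.80% to 7.69% of members and from 1.65% to 3.63% of all genes. The background thus rose more than the members' share on that setting. The median log2 ratio was 0.07 over the cyp genes, 0.01 over the ugt genes and 0.03 over all genes, so the medians of both superfamilies lay close to that of all genes. The members' middle 50% ran from -0.14 to 0.28, and that of all genes from -0.11 to 0.15.

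The swsn-2.2(RNAi) library held 6 members at least 1.5-fold higher than gfp(RNAi), or 5.83%, where the share over all genes was 2.31%. These were cyp-13A5, ugt-12, ugt-13, ugt-43, ugt-44 and ugt-63. One member, ugt-2, was at least 1.5-fold lower, or 0.971% against 1.4% of all genes. With a pseudocount of 0.1 FPKM the order of these shares turned round, to 4.85% lower among members and 2.52% among all genes. With genes listed at 0 kept, 6.73% of members and 4.06% of all genes were higher. The median log2 ratio was 0.09 over cyp, 0.08 over ugt and 0.08 over all genes. With ratios centred on the median of all genes the split of 6 higher and 1 lower became 5 and 3, and with upper-quartile scaling 5 and 2. Over all genes it went from 327 higher and 198 lower to 224 and 309 when centred, and to 222 and 307 with upper-quartile scaling. Both comparisons share the gfp(RNAi) library, so a deviation of that library enters both ratios of a gene.

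**Figure D2:**
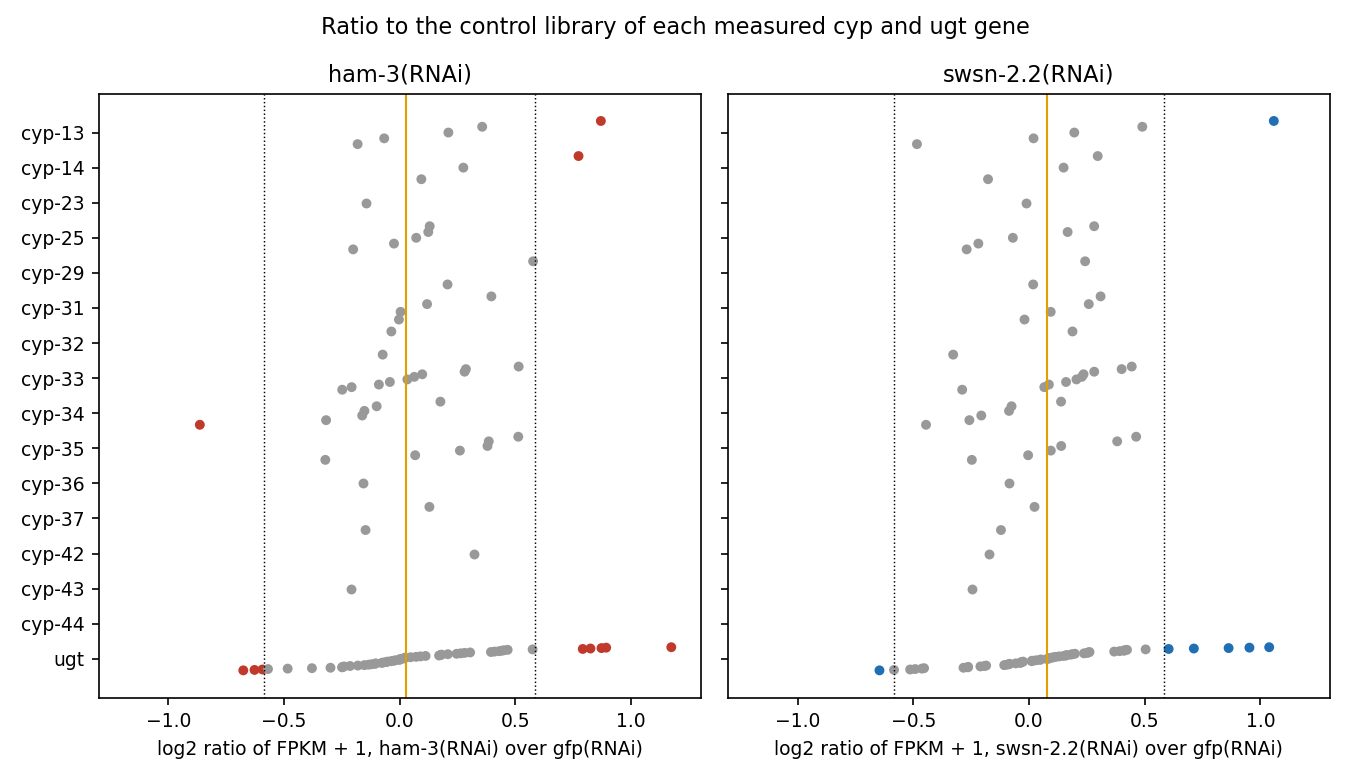
Log2 ratio of FPKM + 1 to the gfp(RNAi) library for the 103 members compared, by cyp family with all ugt genes in 1 row, in the ham-3(RNAi)-labelled library (left) and in swsn-2.2(RNAi) (right). Dotted lines mark 1.5-fold, the solid line the median of all genes (0.03 and 0.08), and coloured points the members past 1.5-fold, 7 higher and 4 lower on the left and 6 higher and 1 lower on the right.

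Among the 103 members compared, ugt-63 had the largest ratio to the control, at 0.747, 2.94 and 2.59 FPKM. Its log2 FPKM ratio was 1.98 in the ham-3(RNAi)-labelled library, with a counting interval of 1.29 to 2.74, and 1.79 in swsn-2.2(RNAi), with an interval of 1.10 to 2.56. The control value rests on about 20 fragments, so the size of this difference is loosely set by counting alone. Both RNAi libraries were above the control.

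Within the cyp-13A array on chromosome II (9779181 to 9807569, WBcel235), which holds 9 members in 28.4 kb, cyp-13A5 differed from its neighbours. It stood at 5.37, 10.6 and 12.3 FPKM, with log2 FPKM ratios of 0.99 (0.72 to 1.25) and 1.19 (0.93 to 1.46). The adjacent and much stronger cyp-13A6 had log2 FPKM ratios of 0.21 (0.16 to 0.26) and 0.02 (-0.03 to 0.07). The remaining strong member, cyp-13A2, stood at 6.63, 6.29 and 9.72 FPKM, with ratios of -0.08 (-0.30 to 0.15) and 0.55 (0.34 to 0.76). The other 6 genes of the array were below 1 FPKM in all 3 libraries. Whether genes of the array share reads was not analysed here.

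An array of 7 ugt genes on chromosome V (4887165 to 4911399, 24.2 kb, from ugt-12 to ugt-13) held 3 of the 8 ugt genes that were at least 1.5-fold higher than the control in one or the other comparison. Its summed level was 54.9, 83.6 and 81.5 FPKM. The strongest gene, ugt-12, stood at 31.3, 47.1 and 48.1 FPKM, with log2 ratios of FPKM + 1 of 0.57 and 0.60, either side of the 1.5-fold line at 0.58. The gene at the other end, ugt-13, stood at 10.1, 19.3 and 17.1 FPKM, with log2 FPKM ratios of 0.94 (0.74 to 1.13) and 0.77 (0.57 to 0.97). Between them, ugt-8 stood at 3.42, 6.65 and 5.28 FPKM, with ratios of 0.96 (0.64 to 1.29) and 0.62 (0.30 to 0.97). The intermingled ugt-11, ugt-9 and ugt-14 were not 1.5-fold apart from the control in either library, and ugt-10 stayed below 0.3 FPKM. The neighbour H23N18.5, not named as a cyp or ugt gene and 0.313 kb beyond ugt-13, had log2 ratios of 0.04 and -0.20.

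**Figure D3:**
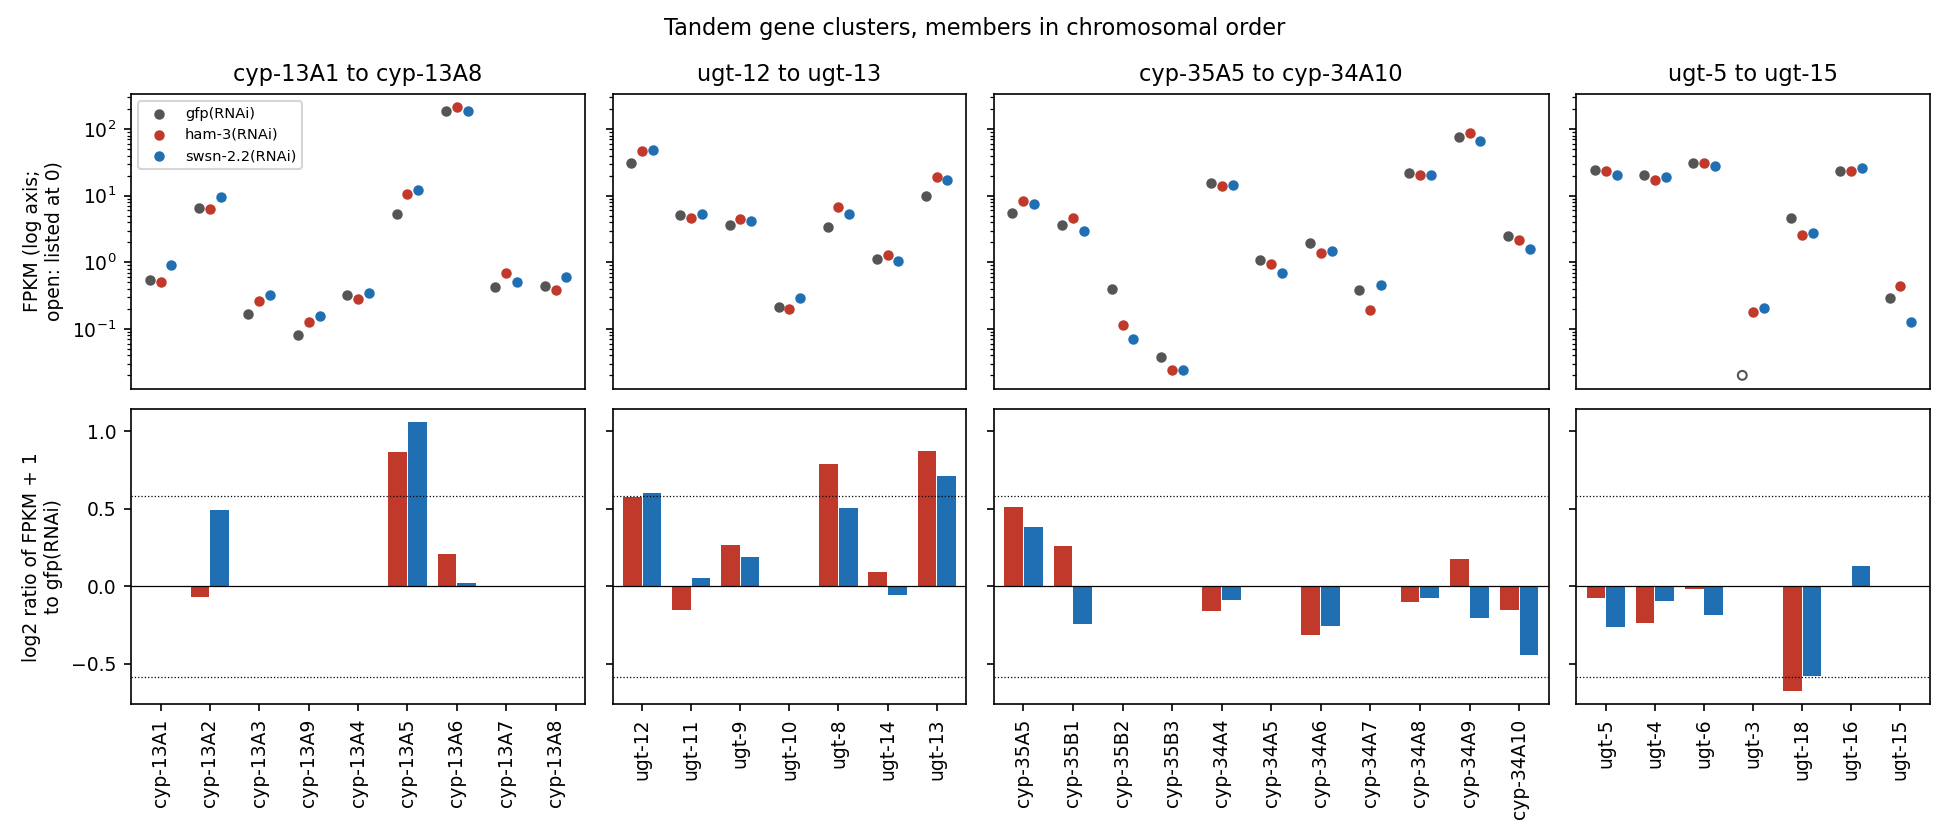
FPKM (top, log axis, open circle for a value of 0) and log2 ratio of FPKM + 1 to gfp(RNAi) (bottom, bars only for genes that could be compared, dotted lines at 1.5-fold) for 4 tandem arrays with genes in chromosomal order, in grey for gfp(RNAi), red for the ham-3(RNAi)-labelled library and blue for swsn-2.2(RNAi). In the cyp-13A array cyp-13A5 stands out from its neighbours, in the ugt-12 array ugt-12, ugt-8 and ugt-13 stand above ugt-11, ugt-9 and ugt-14, and in the ugt-5 array ugt-18 is the lowest bar.

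The ugt-2 gene was at least 1.5-fold lower in each RNAi library than in the shared control. It stood at 12.2, 7.55 and 7.45 FPKM, with log2 FPKM ratios of -0.69 (-0.91 to -0.48) and -0.71 (-0.93 to -0.50). The adjacent ugt-1, on the same strand of chromosome V, was higher than the control instead, at 12.9, 18.2 and 16.9 FPKM, with ratios of 0.50 (0.32 to 0.67) and 0.39 (0.22 to 0.57). The pair together summed to 25.1, 25.7 and 24.4 FPKM. Whether their sequences are alike enough to share reads was not analysed here.

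The ugt-18 gene stood at 4.63, 2.53 and 2.76 FPKM, and ugt-54 at 13.4, 8.53 and 9.23 FPKM. For ugt-54 the log2 ratios were -0.59 and -0.49, so it passed 1.5-fold in the ham-3(RNAi)-labelled library and not in swsn-2.2(RNAi). For ugt-18 the log2 FPKM ratios were -0.88 (-1.23 to -0.50) and -0.75 (-1.09 to -0.38). In swsn-2.2(RNAi) its log2 ratio of FPKM + 1 was -0.58, just short of the 1.5-fold line, and it passed that line once ratios were centred. The ugt-38 gene, at 3.28, 1.88 and 2.0 FPKM, had log2 ratios of -0.57 and -0.51, short of the line in both comparisons, and passed it in both when centred.

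The RNAi libraries were also set against each other, without the shared control. The ham-3(RNAi)-labelled library held 6 members at least 1.5-fold higher than swsn-2.2(RNAi), or 5.83% of the 103 against 1.41% of all genes. It held 3 at least 1.5-fold lower, or 2.91% against 3.38% of all genes. The higher ones were cyp-14A5, cyp-33A1, ugt-21, ugt-31, ugt-33 and ugt-41, and the lower ones were cyp-34A2, ugt-43 and ugt-44. The median log2 ratio was -0.03 for cyp, -0.03 for ugt and -0.05 for all genes. Neither scaling alternative changed these 9 calls in number, while the split over all genes, 200 higher and 479 lower, became 253 and 386 when centred and 275 and 345 with upper-quartile scaling.

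The largest contrast was at a pair of ugt genes on chromosome IV (10464588 to 10471899). The stronger of them, ugt-44, stood at 80.2, 77.0 and 156 FPKM, so it was high in swsn-2.2(RNAi) and close to each other in the other libraries. Its log2 FPKM ratio to the control was 0.96 (0.90 to 1.03) in swsn-2.2(RNAi) and -0.06 (-0.13 to 0.01) in the ham-3(RNAi)-labelled library. Its upstream neighbour ugt-43 stood at 7.12, 4.81 and 13.8 FPKM, which put the RNAi libraries on either side of the control. The log2 ratios of FPKM + 1 were -0.48 and 0.86 to the control, and -1.35 between the RNAi libraries. The nearest other genes compared, F01D4.8 and egl-21, had log2 ratios of 0.31 and -0.03 in swsn-2.2(RNAi). This pair carried most of the difference in summed ugt level between swsn-2.2(RNAi) and the control, 1572 against 1448 FPKM, since ugt-44 alone was 76.0 FPKM higher.

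Some genes were highest in the ham-3(RNAi)-labelled library. The ugt-41 gene stood at 10.2, 19.8 and 11.9 FPKM and ugt-33 at 4.05, 7.94 and 4.33 FPKM. For ugt-41 the log2 FPKM ratio was 0.96 (0.77 to 1.14) to the control and 0.74 (0.59 to 0.89) to swsn-2.2(RNAi). For ugt-33 these ratios were 0.97 (0.67 to 1.29) and 0.87 (0.62 to 1.14).

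The strongly expressed cyp-14A5 was 51.7 FPKM above the control in the ham-3(RNAi)-labelled library, with a log2 FPKM ratio of 0.78 (0.71 to 0.86), and its ratio to swsn-2.2(RNAi) was 0.63 (0.57 to 0.69). For cyp-33A1 the control lay between the RNAi libraries, with log2 FPKM ratios of 0.52 (0.45 to 0.59) and -0.29 (-0.37 to -0.21). The same order held for ugt-31, at 14.8, 20.3 and 12.9 FPKM, and for ugt-21, at 10.6, 13.3 and 8.52 FPKM. The ugt-21 ratio between the RNAi libraries, 0.59, was only just past the 1.5-fold line.

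The P450 gene that was lower in the ham-3(RNAi)-labelled library was cyp-34A2, on chromosome V (15288777 to 15291095). It stood at 12.3, 6.33 and 13.7 FPKM. The log2 FPKM ratio was -0.96 (-1.18 to -0.74) to the control and -1.11 (-1.31 to -0.91) to swsn-2.2(RNAi). Between the RNAi libraries the neighbours differed as well, since M01B2.13 and cpr-3, the nearest other genes compared, had log2 ratios of FPKM + 1 of -0.65 and -1.01.

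**Figure D4:**
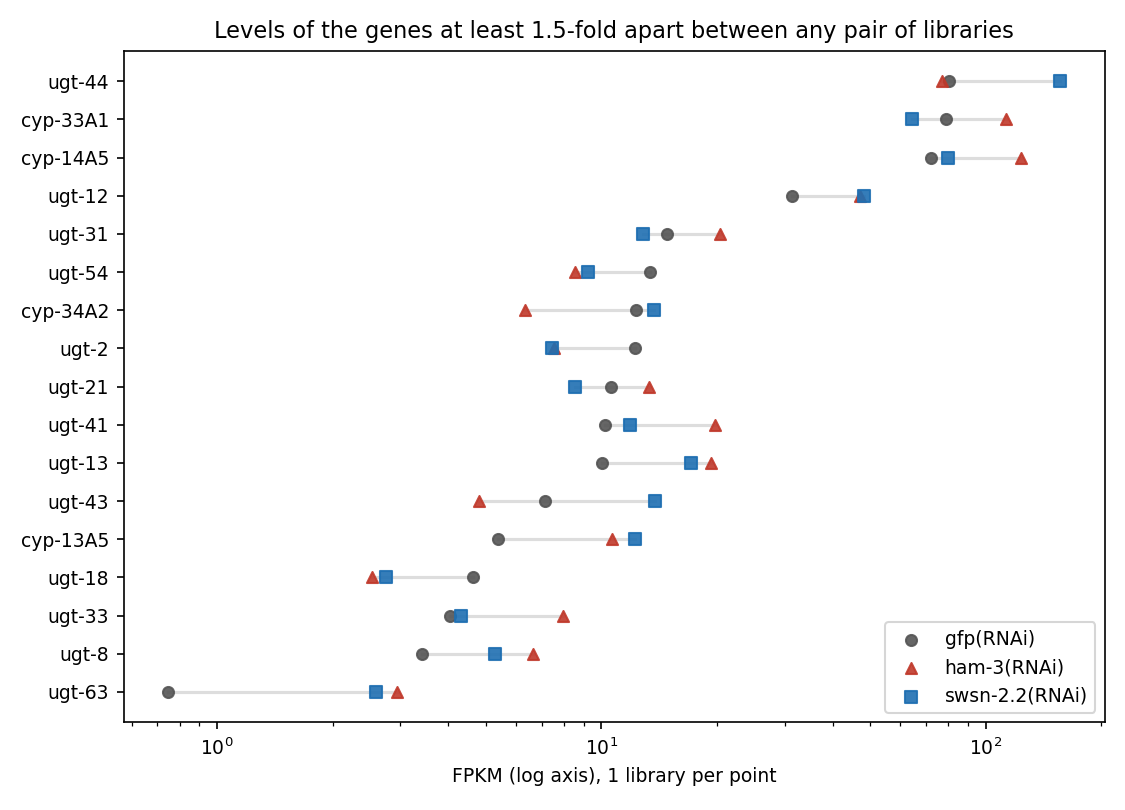
FPKM on a log axis of the 17 members at least 1.5-fold apart between any pair of libraries, 1 point per library, joined by a line. The swsn-2.2(RNAi) square of ugt-44 lies at 156 FPKM, away from 80.2 and 77.0, while for ugt-2, ugt-12 and ugt-63 the points of both RNAi libraries lie together on one side of the control.

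Around all the members past 1.5-fold, the nearest protein-coding genes not named as cyp or ugt were mostly within 1.5-fold, as were most genes compared. In the ham-3(RNAi)-labelled library 0 of 20 such neighbours were 1.5-fold apart from the control, with log2 ratios between -0.47 and 0.48. In swsn-2.2(RNAi) 1 of 11 was, F15H10.8 beside ugt-2 at -0.65. Between the RNAi libraries 2 of 16 were, both beside cyp-34A2. Over all genes compared, the shares higher and lower were 1.65% and 2.8% in the ham-3(RNAi)-labelled library and 2.31% and 1.4% in swsn-2.2(RNAi). Between the RNAi libraries they were 1.41% and 3.38%. Chromosome V holds 85 of the 146 members, 58.2%, against 24.6% of all genes above 0 FPKM, and 85 members lie in 22 arrays with gaps of at most 20 kb.

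The 77 cyp genes above 0 in all libraries summed to 909.4, 1061 and 926 FPKM. The excess of 152 FPKM in the ham-3(RNAi)-labelled library was spread over several strong genes, with 51.7 FPKM from cyp-14A5, 34.1 from cyp-33A1 and 29.4 from cyp-13A6. Left out of these sums was cyp-44A1, related to the mitochondrial P450s of other animals, which was listed at 0 in the control and stood at 13.8 and 14.4 FPKM in the RNAi libraries. Its exons overlap npp-24, a nuclear pore gene, on the same strand, and no ratio was taken. The other members listed at 0 in some library, cyp-33C1, cyp-34A1, cyp-35D2, ugt-3 and ugt-35, were below 0.4 FPKM in the rest.

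The authors' deposited lists, made with Cuffdiff on the same single libraries, hold more members. For ham-3(RNAi) they list 15 of 142 members as higher and 8 as lower, where 1.36% and 2.88% of all genes with a test are listed. For swsn-2.2(RNAi) they list 13 of 145 members as higher and 7 as lower, beside 3.05% and 1.83%. In the authors' deposited table the lowest q-values among members are 7.01e-11 for ugt-44 and 7.97e-09 for cyp-13A5, both in swsn-2.2(RNAi). The lists reach members with q-values as high as 0.158 (ugt-28), and such p-values rest on 1 library a side.

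Transcripts of the same gene could differ in opposite directions. The ugt-65 gene, chosen after its values were seen, has a transcript F08G5.5.1 at 0.987, 5.34 and 4.39 FPKM and a transcript F08G5.5.2 at 4.96, 3.09 and 2.39 FPKM. The former was lowest in the control and the latter was highest there. The ugt-65 gene as a whole stood at 5.95, 8.43 and 6.77 FPKM and was not 1.5-fold apart. Other members, such as cyp-31A5, ugt-9 and ugt-58, also had a transcript lowest and another highest in the control. How reads were divided between transcripts was not examined.

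Like most genes compared, most genes that work with P450s and UGTs were within 1.5-fold of the control. Of 56 such genes 45 could be compared. In the ham-3(RNAi)-labelled library 2 of them were at least 1.5-fold higher and 1 lower, beside 1.65% and 2.8% of all genes. In swsn-2.2(RNAi) 1 was higher and 0 lower, beside 2.31% and 1.4% of all genes. The P450 reductase emb-8 stood at 127, 138 and 132 FPKM. The cytochrome b5 gene cytb-5.2, an alternative electron donor, stood at 391, 391 and 407 FPKM. UDP-glucose dehydrogenase sqv-4, which makes UDP-glucuronic acid, stood at 92.0, 95.2 and 95.6 FPKM.

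The exceptions were a transporter and members of the catechol-O-methyltransferase family. The P-glycoprotein pgp-1, an export pump, stood at 4.42, 7.25 and 7.78 FPKM, with log2 ratios of FPKM + 1 of 0.61 and 0.70. The methyltransferase-family genes comt-3 and comt-5 lay on opposite sides of the control in the ham-3(RNAi)-labelled library. Their levels were 32.9, 20.1 and 32.2 FPKM for comt-3 and 1.86, 4.54 and 2.48 FPKM for comt-5. Regulators linked to these pathways, such as skn-1 (69.9, 81.2 and 76.6 FPKM) and the xenobiotic receptor gene nhr-8 (30.4, 24.9 and 31.5 FPKM), were not 1.5-fold apart. Genes listed at 0 in some library, among them ahr-1, mdt-15 and nhr-49, could not be compared.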

How the data were processed

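The authors computed FPKM with Cufflinks and tested genes with Cuffdiff, per the submitters' processing notes, and the deposited tables hold FPKM with the authors' log2 fold and p-value per gene, and q-values in the lists of higher and lower genes. The aligner, the genome build and program versions: not given in the sources used here. FPKM was used as deposited, as log2(FPKM + 1), for genes above 0 in all 3 libraries with a mean of at least 1. Fragments were inferred from FPKM steps of weak genes with 1 transcript. At the inferred depths, 63.8%, 65.9% and 63.3% of 1490, 1621 and 1613 values came within 0.1 of a whole fragment, so depth is approximate. Clopper-Pearson intervals (95%) used these fragments. Gene positions, strands, biotypes and overlaps come from Ensembl release 115 (WBcel235), where all 146 genes were found. Only the 1.5-fold call and the inference of depth were tested on simulated data. Python 3.11.15, pandas 2.3.3 and scipy 1.17.1 were used.

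Members, gene lists and tests were chosen with earlier results of these data known. Genes named were taken from the 10 highest per superfamily, those past 1.5-fold, those in the authors' lists and those with a published role. They were also taken from those listed at 0 in some library and at 1 FPKM or more in another, and from working partners. Some of the 10 highest and of the authors' lists are not named. Array neighbours and other genes were named after their values were seen. Alternatives were pseudocounts of 0.1 and 5, no filter, a mean of at least 5 FPKM, values of 0 kept, centring, upper-quartile scaling and transcripts summed per gene. Sequences were not analysed here.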

Additional observations from a re-analysis of the deposited data

How the results depend on the processing

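The direction of the named members' ratios that passed 1.5-fold could hardly turn in the settings run, so it was not put to a test. A changed pseudocount or filter keeps the sign of a ratio, and centring moved ratios only by the median of all genes. These medians were 0.03 and 0.08 to the control and -0.05 between the RNAi libraries. Counts near the 1.5-fold line did move. With a pseudocount of 5 FPKM, members higher and lower than the control were 4 and 1 in the ham-3(RNAi)-labelled library (all genes 0.48% and 1.09%). They were 3 and 0 in swsn-2.2(RNAi) (all genes 0.707% and 0.473%). In that setting the ham-3(RNAi)-labelled library held 2 members higher and 3 lower than swsn-2.2(RNAi), or 1.94% and 2.91% (all genes 0.509% and 1.46%). The main setting had 6 and 3. With a pseudocount of 0.1 FPKM, 5 members were lower in swsn-2.2(RNAi) than in the control (4.85%, all genes 2.52%). Another count of 5 was lower in the ham-3(RNAi)-labelled library than in swsn-2.2(RNAi) (4.85%, all genes 5.12%). Members lower in swsn-2.2(RNAi) than in the control numbered 3 with centred ratios (2.91%, all genes 2.18%). With upper-quartile scaling they numbered 2 (1.94%, all genes 2.17%). Centring left ugt-12 at 0.52 in swsn-2.2(RNAi) and brought in ugt-18 (-0.66) and ugt-38 (-0.59). A larger pseudocount shrinks the ratios of weak genes by construction. Of 1317 recomputed ratios of named members, 14 passed the 1.5-fold line anew and 16 dropped below it. Another 21, none past that line in the main setting, changed sign. The others kept their sign and their side of the line, many with another size. Filters and kept values of 0 leave each ratio as it was, so part of this total could not change. No paired analysis was possible because each group has 1 library, and for the same reason no library could be left out. Depth limits weak genes most, with about 20 control fragments behind ugt-63.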
